A study of Mus musculus with 8 samples.

Results

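The genes described here are 9 mouse genes that mark the oligodendrocyte lineage: Cspg4 and Gpr17 for precursors, Myrf for the switch to myelination, and Mbp, Mog, Mag, Mobp, Cnp and Opalin for mature myelin. Every row of the deposited region list that lay in one of these genes or within 5000 bp of it on mm10 was taken, which gave 113 of the 220894 regions. The study captured genomic DNA for bisulfite sequencing in 8 mouse cell lines, to ask where DNA methylation differs between lines with mutant and wild-type IDH. Of these, 4 derived from brain tumours with mutant IDH, and 2 from tumours called RAS gliomas, in which IDH was wild type. The remaining 2 were immortalized astrocyte lines with wild-type IDH, in 1 of which wild-type IDH1 was expressed exogenously. All lines came from mice carrying N::TVA, which makes cells open to avian retroviral vectors, and homozygous floxed Cdkn2a, on a mix of the FVB/n, 129 and C57Bl/6 strains. Homozygous floxed Atrx was part of the genotype behind the astrocytes and the IDH mutant tumours, and is not listed for that behind the wild-type tumours. Each line is a culture grown in DMEM with serum, and none is labelled as an oligodendrocyte line.

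The file used holds 1 position and 1 score per region for all lines together. The score is a whole number, with 100 as the lowest value in the list, and its meaning is not stated by the labels or the file. No methylation level and no value of a single line could be read from it, so no mutant or wild-type difference, replicate spread or test is given, and the depth of each line is unknown. Everything below describes how these genes were covered by regions and how the scores of those regions ranked.

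Oligodendrocytes wrap axons of the central nervous system in myelin. They arise from dividing precursors that carry the NG2 proteoglycan, the product of Cspg4, and pass through a short committed stage marked by the receptor GPR17. The membrane-bound transcription factor MYRF then turns on the genes of the myelin sheath, among them those for the proteins that compact its layers and those at its inner and outer surfaces. Bisulfite converts unmethylated cytosine and spares methylated cytosine, so sequencing after it reads methylation at CG sites, and a capture kit sets which parts of a gene are read.

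All 9 genes had at least 1 region in the window, and 8 of 9 had 1 in the gene itself. Over all 21883 protein-coding genes, 87.9% had a region in such a window and 82.3% had one in the gene, so the presence of a region says little about these genes. The amount of sequence covered differed more. The 113 regions covered 61987 bp, or 16.9% of the summed windows, and the median over the 9 genes was 15.6% against a median of 8.83% over all protein-coding genes. Short and long genes are covered to different extents, so each gene was also set beside the protein-coding genes whose length was within 20% of its own. On that scale the covered share was above the median of like genes at 6 of the 9 members, and below it at Gpr17, Mag and Opalin. The farthest region taken began 4893 bp from Mog and scored 953 over 1150 bp, and the nearest one left out began 5099 bp from Mag and scored 895 over 730 bp.

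**Figure D1:**
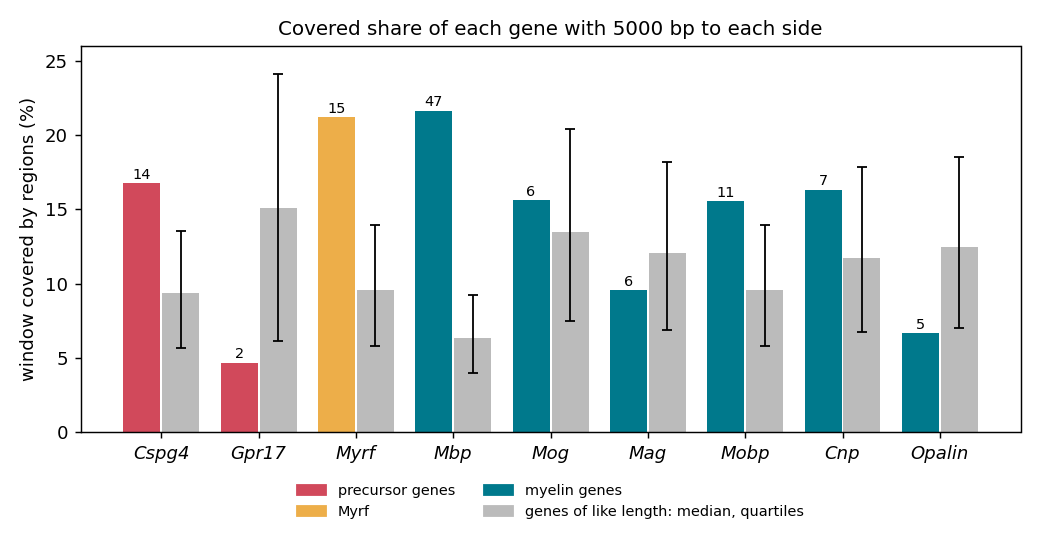
Share of each gene with 5000 bp to each side that lay inside regions (coloured bars, in percent, with the number of regions above), beside the median of protein-coding genes of like length (grey bars, with lines from the first to the third quartile). Mbp and Myrf reached 21.7% and 21.2%, and Gpr17 had the lowest share at 4.68%.

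Cspg4, which encodes the NG2 proteoglycan of precursor cells, lies on chromosome 9 at 56865104 to 56899870. It had 14 regions, 11 of them in the gene, and they covered 16.8% of its window against a median of 9.36% for 2192 genes of like length. A higher share was thus found than at 85.2% of those genes. Scores ran from 111 to 916 with a median of 353.5. Score rises with width over the whole list (Spearman rho = 0.803 across the 220894 regions, a description of sites that share libraries), so each region was also ranked within a matched set, made of every listed region whose width differed by at most 50 bp. By that rank the Cspg4 regions had a median percentile of 19.1, with the lowest at 1.07 and the highest at 69.6. No region of Cspg4 lay above the 75th percentile, and 8 of the 14 lay below the 25th. Over the whole list 20.9% of regions lay above the 75th and 23.1% below the 25th, shares that need not be 25% because the matched set of each region spans a range of widths. The gene median was higher than that of only 4.67% of genes of like length with a region, which places Cspg4 among the genes with low scores for the width of their regions.

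Within Cspg4 the regions were unevenly spaced. The first 5 regions lay between 56864161 and 56867420, followed by 9820 bp without any region and then by a single region at 56877241 to 56877770. The other 8 lay from 56886061 onwards. The region over the start of the gene, at 56864551 to 56865540, was 990 bp wide with a score of 281, the lowest percentile of the 14. A narrower region downstream, at 56866351 to 56866720, scored 553 over 370 bp and had the highest percentile of the gene. Another region, at 56865741 to 56865930 with a percentile of 65.8, lay between them. Regions near the start of Cspg4 therefore stood at both extremes of its range.

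Gpr17 encodes a receptor of the G protein-coupled family found in committed precursors, and is a short gene of 6892 bp on chromosome 18. It was the member without a region in the gene, as were 18.8% of the 1682 genes of like length. Both of its regions lay in the flank on the lower-numbered side, the nearer at a distance of 3379 bp. The region at 31938371 to 31938950 scored 365 over 580 bp (percentile 12.9), and the region at 31939411 to 31939620 scored 193 over 210 bp (percentile 52.0). Both lay inside the span of Lims2, which encodes a LIM domain protein of cell adhesions and whose span contains Gpr17, and inside the non-coding gene Gm46619. They covered 4.68% of the window, against a median of 15.1% for genes of like length, and describe a stretch shared with those genes rather than Gpr17 alone.

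Myrf, on chromosome 19 at 10208271 to 10240777, encodes the factor that activates myelin genes, and had the widest range of ranks of the 9 genes. It had 15 regions covering 21.2% of its window, more than at 93.0% of the 2237 genes of like length. Their median percentile was 37.8 with a range of 0.386 to 94.5. The highest of them, at 10231611 to 10232700, scored 1757 over 1090 bp, the highest score of all 113 regions. The lowest, at 10239591 to 10240610, scored 255 over 1020 bp and lay close to the higher-numbered end of the gene. These regions are alike in width, and their scores stood at opposite ends of the matched set. In all, 6 of the 15 regions were below the 25th percentile and 1 was above the 75th. The 10700 bp at the lower-numbered end of Myrf held no region, and the 2530 bp region beyond that end overlapped the neighbouring genes Fen1 and Tmem258.

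**Figure D2:**
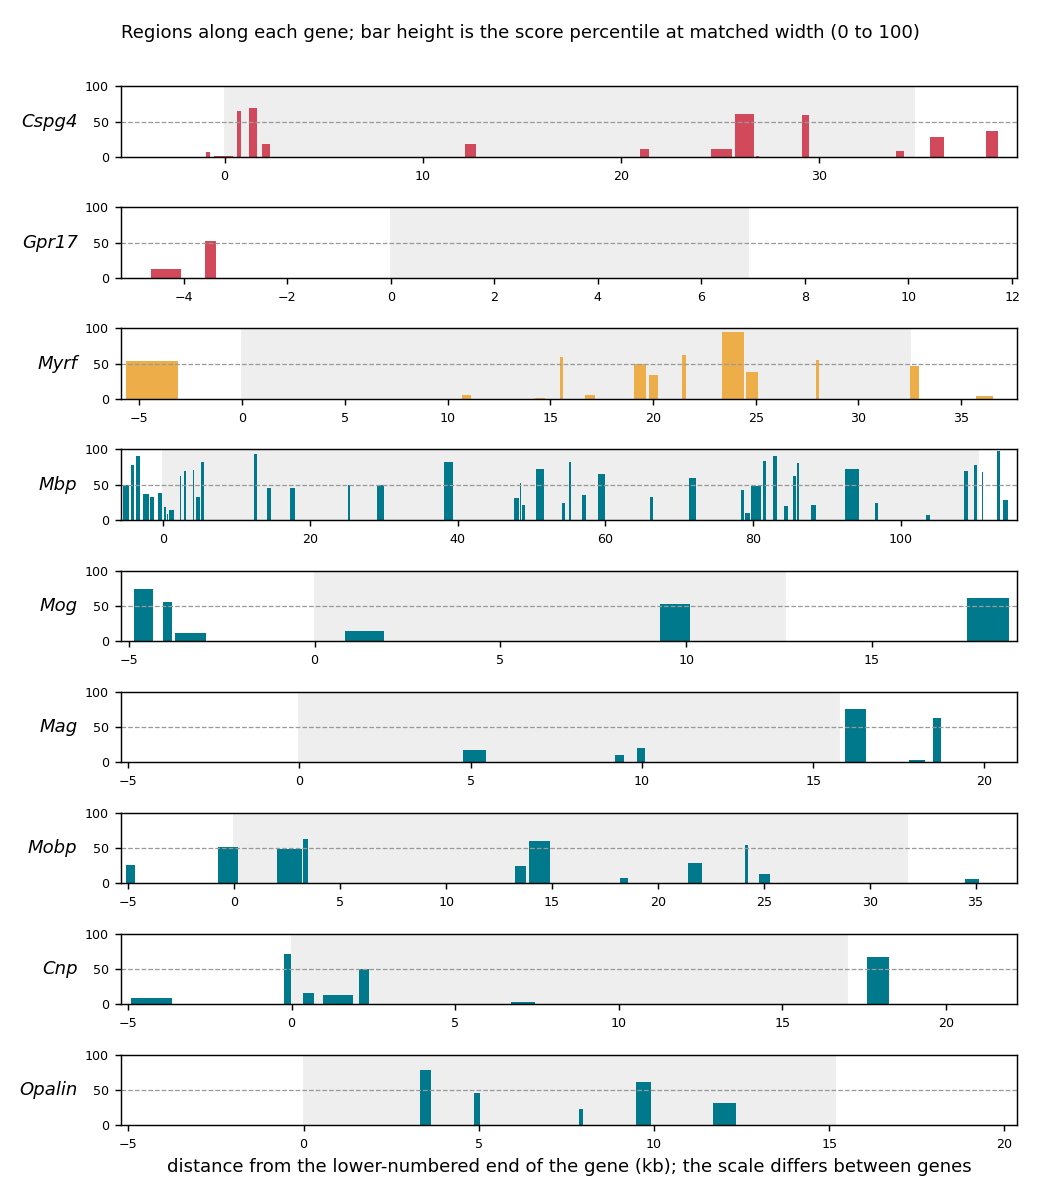
Position of each region along its gene, as distance in kb from the lower-numbered end (red for precursor genes, yellow for Myrf, blue-green for myelin genes; grey shading marks the gene, and the scale differs between genes). Bar width is region width and bar height is the score percentile in the matched set of widths (within 50 bp), with a dashed line at 50; Gpr17 has no bar inside the gene, whereas Mbp has 38.

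Mbp encodes myelin basic protein, which holds the inner faces of the myelin membrane together, and its locus also gives rise to the longer golli transcripts. It spans 110547 bp on chromosome 18, from 82475091 to 82585637, and had 47 regions, 38 of them in the gene. Those 47 are 41.6% of all regions of the 9 members and 57.3% of the regions of the myelin genes. The 1115 genes of like length had a median of 14 regions, and 99.7% of them had fewer than Mbp. The covered share was 21.7% against a median of 6.33% for these genes.

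The scores at Mbp were close to those of the whole list. The median percentile was 49.9, with a range of 7.55 to 98.5, and 11 of 47 regions (23.4%) lay above the 75th percentile. The highest rank belonged to a 450 bp region with a score of 1453 at 82588131 to 82588580, beyond the higher-numbered end. Others above the 90th percentile were regions at 82471441 to 82471980 (score 1161), 82487391 to 82487910 (score 1215) and 82557831 to 82558400 (score 1208). They lay in the flank before the lower-numbered end, near the lower-numbered end of the gene and towards its far end, so high ranks were spread over the locus. With the gene divided into 5 equal parts from the lower-numbered end, 11, 3, 9, 10 and 5 regions had their midpoint in the successive parts. Coverage of these parts was 19.0%, 11.2%, 21.9%, 28.2% and 17.2%. A pair of regions overlapped the pseudogene Rpl21-ps8, and whether their reads also match other Rpl21 copies was not tested. The non-coding gene Gm52337 overlapped 9 regions of Mbp.

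The other 5 myelin genes were covered by 5 to 11 regions each. Mobp, which encodes a small basic protein of compact myelin, had 11 regions covering 15.5% of its window on chromosome 9, and a median percentile of 28.3. Mog encodes a surface glycoprotein on the outermost layer of the sheath. It had 6 regions covering 15.6% of its window on chromosome 17, and its median percentile of 53.7 was the highest of the 9 genes. However, 3 of those 6 lay in the neighbouring gene Zfp57, a zinc finger factor that protects imprinted methylation, whose span ends 10 bp before that of Mog.

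Cnp encodes a cyclic nucleotide phosphodiesterase that keeps cytoplasmic channels in myelin open. It had 7 regions covering 16.3% of its window on chromosome 11, and the lowest median percentile of the 9 genes, 16.1. Of these regions, 1 lay in Ttc25 and another in Dnajc7. Mag encodes an adhesion protein on the side of the sheath that faces the axon. Its 6 regions covered 9.55% of the window on chromosome 7, with a median percentile of 18.4. The Cnp and Mag medians were above those of only 5.50% and 7.34% of genes of like length, so low ranks were not confined to the precursor gene Cspg4. Opalin encodes a transmembrane protein of oligodendrocytes on chromosome 19. It had 5 regions covering 6.68% of its window, all inside the gene, and a median percentile of 46.4.

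At 6 of the 7 genes with regions both in the gene and in the flanks, the regions in the gene had the lower median percentile. How often this holds over all protein-coding genes was not computed, so the count is not read as a trait of these genes. The 3 regions in Mag had a median of 17.2, and the 3 in its flanks 62.2. The 4 regions in Cnp had a median of 14.7, and the 3 in its flanks, 2 of which lie in Ttc25 and Dnajc7, had 66.3. At Mog the medians were 33.2 for 2 regions in the gene and 58.0 for 4 in the flanks, 3 of which lie in Zfp57. The gap was smaller at Cspg4 (19.0 in the gene and 28.2 in the flanks), Myrf (36.1 and 47.3) and Mbp (49.7 and 50.3). Mobp went the other way, with 47.9 for 9 regions in the gene and 15.9 for 2 in the flanks. Outside Mbp these medians rest on few regions, and no test was made of them.

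**Figure D3:**
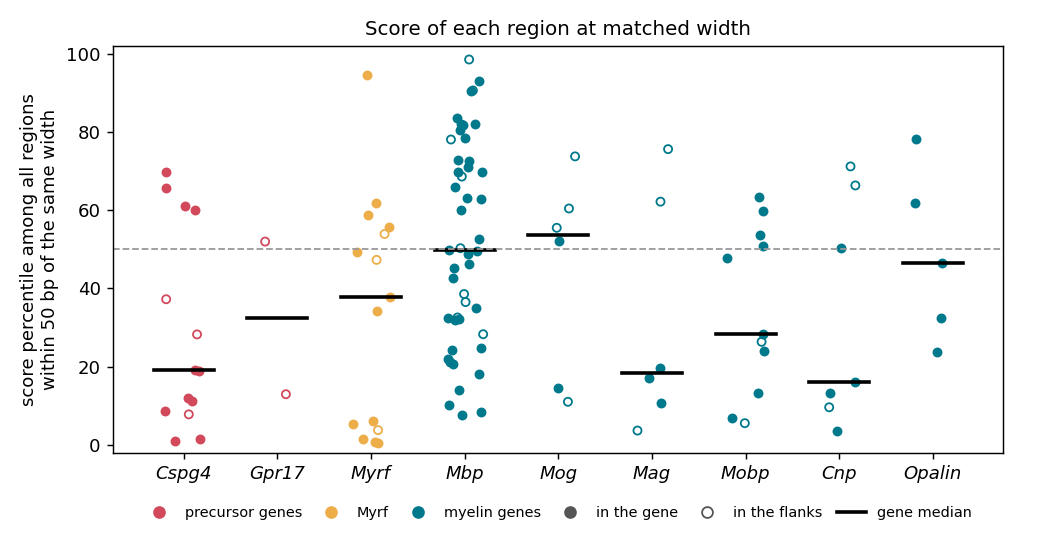
Score percentile of each region in its matched set of widths (within 50 bp), by gene (filled points lie in the gene, open points in the 5000 bp to each side, black lines are gene medians). Mog is the member with a median above 50, Mbp sits at 49.9, and the medians of Cspg4, Mag and Cnp lie between 16.1 and 19.1.

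The start of transcription could be placed for 6 of the 9 members from promoter sequences of RefSeq on GRCm38.p6, the assembly that mm10 names: Cspg4, Mog, Mag, Mobp, Cnp and Opalin. Gpr17, Myrf and Mbp had no entry. A region lay over the start site at Cspg4 and Mobp, 2 of 6, against 37.5% of 17491 protein-coding promoters. Including regions that reached any of the 250 bases before the start added Mag and Cnp, 4 of 6 against 57.2% of promoters. At Mog and Opalin the nearest region was 2568 bp and 2823 bp from the start site. Coverage of promoters differed with the number of CG dinucleotides in those 250 bases, the sites of DNA methylation. A region was found at 20.7% of promoters with 0 to 4 CG, 77.5% of those with 5 to 14 and 74.9% of those with 15 or more. Of the 4 members with 0 to 4 CG (Mog, Mag, Mobp and Opalin), 2 had a region, and both members with 5 to 14 CG (Cspg4 and Cnp) had one. With 6 genes in all, these counts are a description.

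The 250 bases before the start are shown for 4 genes that span the range of coverage seen, from fully covered to uncovered, 5′ to 3′ on the strand of the gene and with each CG dinucleotide in capitals. They are Cspg4 (chr9:56864854-56865103, plus strand), Mobp (chr9:120149492-120149741, plus strand), Cnp (chr11:100574689-100574938, plus strand) and Opalin (chr19:41077114-41077363, minus strand).
Cspg4: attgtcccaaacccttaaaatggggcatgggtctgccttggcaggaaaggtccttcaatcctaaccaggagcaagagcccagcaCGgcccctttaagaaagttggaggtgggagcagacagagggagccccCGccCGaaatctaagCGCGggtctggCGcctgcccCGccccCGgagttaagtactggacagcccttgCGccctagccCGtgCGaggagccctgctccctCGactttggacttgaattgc
Mobp: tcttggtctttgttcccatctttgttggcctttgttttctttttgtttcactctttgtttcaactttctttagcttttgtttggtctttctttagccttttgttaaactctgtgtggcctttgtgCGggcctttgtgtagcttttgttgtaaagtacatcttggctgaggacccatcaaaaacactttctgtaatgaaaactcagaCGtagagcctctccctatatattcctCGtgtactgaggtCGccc
Cnp: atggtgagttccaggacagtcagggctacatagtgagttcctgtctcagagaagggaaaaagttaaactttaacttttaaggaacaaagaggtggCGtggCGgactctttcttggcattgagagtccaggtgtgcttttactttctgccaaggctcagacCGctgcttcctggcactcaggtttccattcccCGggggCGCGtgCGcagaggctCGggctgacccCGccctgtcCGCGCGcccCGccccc
Opalin: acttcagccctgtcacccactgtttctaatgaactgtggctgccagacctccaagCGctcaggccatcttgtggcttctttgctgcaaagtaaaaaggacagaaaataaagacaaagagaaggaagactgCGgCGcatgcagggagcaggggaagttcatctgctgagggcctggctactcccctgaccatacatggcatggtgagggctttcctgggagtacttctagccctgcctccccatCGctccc
The Cspg4 and Cnp stretches hold 12 and 13 CG, more than at 54.9% and 57.5% of promoters. The Mobp and Opalin stretches hold 4 each, more than at 29.7% of promoters.

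Among these members the number of CG before the start did not order the scores of the regions there. All 250 bases shown for Cspg4 lay in the 990 bp region with percentile 1.07, and all 250 shown for Mobp lay in a 920 bp region with a score of 803 and percentile 50.8. At Cnp, 192 of the 250 bases lay in a region 210 bp wide with a score of 226 and percentile 71.2, which ended 59 bp before the start site. At Mag, whose stretch holds 3 CG, 82 of the 250 bases lay in a 620 bp region with a score of 947 and percentile 75.6. The stretches with the most CG, Cnp and Cspg4, therefore went with a high and a low rank. Over the 9999 promoters with a region, the correlation between CG number and percentile was weak (Pearson r = -0.061, Spearman rho = -0.068, across promoters that share libraries and base composition). By class, the median percentile was 45.6 with 0 to 4 CG, 35.5 with 5 to 14 and 34.9 with 15 or more. Over all 9999 it was 36.3, against 51.0 over the whole list, and the Cspg4 region lay far below each of these medians.

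The Mobp stretch also carries a repeated run of the letters ACAAAG read on either strand. These letters are a form of the core recognised by SOX factors, the family of SOX10, which acts with MYRF at myelin genes. Other forms of that core and motifs of other factors were not counted. Counting these letters was not among the planned results, so the place of Mobp among promoters is a description only. With overlaps allowed, the stretch held 6 matches, all of them inside the region over the start. At least 3 matches were found in 18 of 17491 promoters (0.103%), and 6 or more in 1, that of Mobp. Mag, Cnp and Opalin held 1 match each, and Cspg4 and Mog held none, while 14.9% of all promoters held at least 1. A match of letters is not evidence of binding.

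Precursor and myelin genes were compared at matched width, with Myrf kept apart. The 16 regions of the precursor genes, of which 87.5% belong to Cspg4, had a median percentile of 19.1, and the 82 regions of the myelin genes had a median of 48.3. The difference of -29.2 percentile points rested in large part on Mbp, since the 35 regions of the other 5 myelin genes had a median of 32.4 and the difference from them was -13.3. By gene, Cspg4 at 19.1 and Gpr17 at 32.5 lay within the range of the 6 myelin genes, 16.1 to 53.7, so the groups overlapped. With every gene counted the same, the medians were 25.8 for precursor and 37.3 for myelin genes, or 28.3 for those other than Mbp. Regions of 1 gene are not replicates and the precursor group holds 2 genes, so no test of this difference is given.

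None of the 16 precursor regions lay above the 75th percentile, against 13 of 82 myelin regions (15.9%), 11 of which were in Mbp. Without Mbp the myelin genes had 2 of 35 (5.71%), below the 20.9% of the whole list. Below the 25th percentile lay 9 of 16 precursor regions (56.3%), 25 of 82 myelin regions (30.5%) and 15 of the 35 outside Mbp (42.9%), against 23.1% of the list. Low ranks were thus frequent in the precursor regions and in those of the myelin genes other than Mbp, but unevenly. They made up 4 of 6 regions at Mag, 4 of 7 at Cnp and 4 of 11 at Mobp. Mog had 2 of 6 and Opalin 1 of 5. The 1 at Opalin was 110 bp wide, near the narrowest width of 100 bp. Its matched set thus reached farther above its width than below. Its score of 121 was above the first quartile, 118, of all regions 100 to 140 bp wide.

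The same order was seen in the scores themselves, from which the percentiles were made, so this is not separate support. Among regions 400 to 800 bp wide the median score was 365 for 7 precursor regions and 526 for 40 myelin regions, or 443 for the 15 of them outside Mbp. It was 325 for the 7 regions of Myrf and 635 over all autosomal regions of that width. When each precursor region was set against myelin regions within 50 bp of its width, 11 of 16 scored below their median. Without Mbp 10 of 16 did so, and both counts stand not far above an even split. The order did not hold at every width. Between 600 and 990 bp the median was 582 for 4 precursor regions and 562 for 23 myelin regions, while between 300 and 590 bp it was 365 for 7 precursor regions and 491 for 31 myelin regions.

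**Figure D4:**
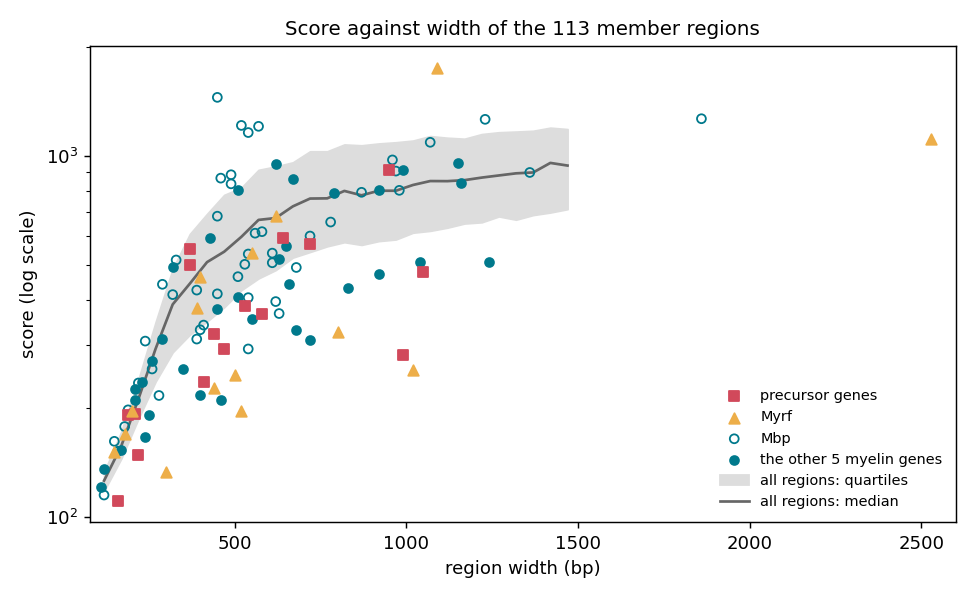
Score (log scale) against width in bp of the 113 regions, with precursor genes as squares, Myrf as triangles, Mbp as open circles and the other 5 myelin genes as filled circles. The grey band and line give the quartiles and median of all regions in steps of width; the points above 1000 belong to Mbp and Myrf.

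Coverage of the 2 groups differed less. Regions covered 13.5% of the windows of the precursor genes and 17.0% of those of the myelin genes, at 2.59 and 3.12 regions per 10 kb, and the median region width was 455 and 515 bp. Without Mbp the myelin genes had 13.1% and 2.46 regions per 10 kb, and the order of the covered shares turned round. Without Cspg4 the precursor side is Gpr17 alone, at 4.68%. The 2 precursor genes thus stood farther apart from each other than the groups did.

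Of 27 other genes of the lineage, all had a region in the window and 26 had one in the gene, with a median covered share of 10.5%. Their median score percentile, taken over genes, was 49.1, against 32.5 for the 9 members and 48.5 for all protein-coding genes with a region. A gene median above 50 was found at 1 of the 9 members, at 13 of the 27 other lineage genes and at 46.9% of all genes with a region. The median of the wider lineage list thus lay close to that of all genes. Genes of that list with fewer than 3 regions were left out of the ranking that follows. The highest gene medians were at Ptprz1, a receptor phosphatase of precursors (70.7 over 7 regions), Gjc3, a gap junction gene (68.0 over 3), Aspa, which encodes aspartoacylase (63.7 over 5), and Sox6, a factor that holds back differentiation (59.9 over 40). The lowest were at the homeobox genes Nkx2-2 (19.02 over 16 regions) and Nkx6-2 (19.7 over 9), at Gal3st1, a sulfotransferase of myelin lipids (19.7 over 5), and at Cntn2, an axonal and glial adhesion gene (19.96 over 8). These lowest values lie close to that of Cspg4.

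Astrocyte markers were set beside them because 2 of the lines are astrocytes. Of 9 such genes, 8 had a region, and the median over genes of the score percentile was 46.7 with a median covered share of 10.8%. Aldoc (64.8), the glutamate transporter gene Slc1a2 (57.0) and the gap junction gene Gja1 (51.2) ranked highest, and the filament gene Gfap (28.4), the glutamine synthetase gene Glul (33.3) and Aldh1l1 (37.7) lowest. The water channel gene Aqp4 had no region in its window. Since the scores pool all 8 lines, none of these values separates the astrocyte lines from the tumour lines.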

How the data were processed

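Per the labels' protocols, an Agilent SureSelect kit for mouse methylation sequencing (Methyl-Seq) was used to capture genomic DNA of the 8 lines. The submitters' processing notes name the build mm10 and the tools Novoalign (version 3.7.1) and Picard. The sources used here do not give the region caller, its filters or what the score measures. The deposited score is 1 whole number per region for all lines together; coordinates lie on a grid of 10 bp and are printed counting from 1.

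Genes came from a RefSeq table on GRCm38.p6, and a region was counted if it shared 1 bp with the gene and 5000 bp to each side. Percentiles are mid-ranks among all regions within 50 bp of the width, so few wide regions support the rank of the widest member region (166 in its matched set). For promoters, the outermost start that the promoter sequences list for each gene was used. At Cnp that start, 100574939, lies inside the gene span, which begins at 100574909. Groups of lines could not be compared with 1 pooled list, and the base composition of the regions themselves was not analysed here. The members and gene lists were chosen with earlier results of these data known. All members are named; of the other lists, up to 4 genes with the highest and lowest medians over at least 3 regions and those without a region. Part of the genotype of the mice is not reported here. The overlap step was checked on made-up regions, and the rank step on random scores unrelated to width, with the widest regions left out. That check could not show a bias of the ranks where score rises with width, as it does here. Python 3.11.15, pandas 2.3.3, numpy 2.4.6 and scipy 1.17.1 were used.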

Additional observations from a re-analysis of the deposited data

How the results depend on the processing

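No paired analysis was possible because the list holds no value of a single line, and no line could be left out for the same reason. The number of member regions was 113, and ran from 84 in the gene alone to 133 with windows of 10000 bp over 7 alternatives. The precursor minus myelin difference in covered share was -3.53 percentage points; it was -12.3 without Cspg4, 0.411 without Mbp, -0.219 without Gpr17 and -0.368 with Myrf as a precursor gene, and was negative under 14 of 15 alternatives. The difference in median percentile at matched width stayed negative under all 21 alternatives run, from -30.4 to -11.6. It was -11.6 with the median of gene medians, -13.3 without Mbp and -15.8 without Cspg4. With gene medians and without Mbp together, which was not among the 21, the medians were 25.8 for precursor and 28.3 for myelin genes. The differences in the share of regions above the 75th percentile (9 alternatives, -21.95 to -12.6 points) and in the median score of regions 400 to 800 bp wide (-161, or -181 to -72 over 4 alternatives) kept their direction. No member was left out in these alternatives. Without Mbp the shares were 0% for precursor and 5.71% for myelin regions, a smaller gap than any in that range. The median scores at 400 to 800 bp were then 365 and 443. At widths of 600 to 990 bp, which were not among the 4, the order turned round, with 582 for precursor and 562 for myelin regions. Single-gene counts of regions changed by over 1.5 times in 15 of 63 cases, among them 6 at Gpr17 and 5 at Mog. An unknown depth and 1 pooled score per region limit all of these values.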
